A study of Mus musculus with 4 samples.

Results

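The canonical Wnt pathway is described here in cells sorted from the crushed mouse retina, through 41 genes chosen by name out of 56493 in the deposited count table. All 41 were found, each in 1 row. They comprise 6 genes for ligands and their secretion, 11 receptors, 9 inhibitors and 15 transducers, and the 4 classes are compared apart. RNA sequencing covered 4 libraries of wild-type mice, all with an optic nerve crush a month after a viral vector (AAV2) was put into the vitreous of the eye. In 2 libraries the vector was AAV2-CrAT, given to overexpress the enzyme carnitine acetyltransferase, which exchanges acetyl groups between carnitine and coenzyme A. In the other 2 it was AAV2-MCS, a name that the labels do not spell out. All titles also carry the tag NCd8, not explained there either. The cells were sorted by fluorescence and labelled as retinal ganglion cells. The labels give neither the promoter of the vectors nor the age of the mice, and do not say whether the 2 libraries of a group come from different mice. P-values therefore measure only the spread between libraries, which may be technical. Paired values below give replicate 1 first and replicate 2 second.

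Wnt proteins are lipid-modified ligands that bind a Frizzled receptor together with the co-receptor Lrp5 or Lrp6. Without a ligand, a destruction complex built on Axin and Apc lets casein kinase and Gsk3b phosphorylate beta-catenin, which is then degraded. With a ligand, Dishevelled proteins disable that complex, beta-catenin enters the nucleus and joins TCF/LEF factors, and several of the genes switched on (Axin2, Nkd1, Rnf43, Znrf3) are themselves brakes on the pathway. In the retina the pathway is known for its part in eye field and ciliary margin development, in Mueller glia after injury and, with the ligand norrin in place of a Wnt, in the growth of retinal vessels.

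Depth was 24494253 to 27097438 counts per library. Transcripts of several retinal cell types were present. The summed level of 8 rod markers was 23220 to 43875 CPM (counts scaled to library size, with TMM factors), that of 16 Mueller glia markers 11909 to 22557 CPM, and that of 10 ganglion cell markers 58.4 to 192 CPM. Of the ganglion cell markers, Rbpms was low, at 2.75 to 8.58 CPM, and Pou4f1 was at 0 to 0.754 CPM. Pou4f2 was at 0 in 3 libraries and 0.217 CPM in MCS replicate 2. The rest of the list made up most of its sum. As several cell types were present, the Wnt values are those of the sorted mixture. In such a mixture, fewer cells of a type and less RNA per cell cannot be told apart. Nuclear retained RNAs stood apart in MCS replicate 1, at 1463 CPM against 401 to 541 CPM in the other libraries. Crat itself was 72.5 and 49.9 CPM in CrAT against 38.3 and 47.7 CPM in MCS, a log2 fold change of 0.51 (SE 0.33; edgeR quasi-likelihood test, adjusted p = 1).

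Most Wnt pathway genes had lower levels in the CrAT libraries. The list was chosen with earlier results of these data known, so the shares below describe it and do not test it. Of the 36 members that could be tested, 31 had a log2 fold change (CrAT over MCS) below 0 and 5 above 0, with a median of -0.64, where 49.4% of the 19638 genes tested were below 0 and their median was 0.01. Some of these were let in by the MCS libraries alone. Of the 31 members at the level of the filter on low counts in both groups, 26 were below 0 and 5 above, with a median of -0.52, where 48.9% of the 17077 genes at that level were below 0, again with a median of 0.01. No member passed an adjusted p of 0.05 in edgeR's quasi-likelihood test, nor did any gene of the table (0%). At an unadjusted p under 0.05, 9 members were lower and 0 higher, which is 25% of those tested, where 4.15% of all genes tested were past that p, 2.87% lower and 1.28% higher. They were Wnt6, Fzd5, Fzd1, Lgr4, Znrf3, Gsk3b, Tcf7l2, Tcf7l1 and Vangl2. By DESeq2 0 members passed an adjusted p of 0.05 either, where 0.275% of all genes did, and 11 had an unadjusted p under 0.05, where 4.57% of all genes did. In 23 of the 36 members the CrAT pair was under the MCS pair without overlap, and in 0 over it, where 16.6% of all genes lay below and 15% above. All 9 were at the level of the filter in both groups, as were 20 of the 23. Whichever library was left out, these 9 kept a log2 fold change below 0, over the ranges given below. Fewer members had an unadjusted p under 0.05 in each of those fits. Each leaves a lone library in its group, so the counts are listed only with the processing settings at the end. Nothing is drawn from them. With 2 libraries a group, an exact permutation test of a single value cannot give a two-sided p below 0.333, so none is given.

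The filter on low counts kept 31 members through both groups. Fzd8, Nkd2, Rnf43 and Lef1 reached its level of 10 counts at the median depth in both MCS libraries but not in both CrAT libraries, and Sfrp2 in 1 library of each group. The place of the former 4 among the tested genes depends on the group where they were higher. All 4 had a log2 fold change below 0. The 5 members not tested had few reads. Fzd2 had 4 and 0 counts in CrAT against 6 and 12 in MCS. Wnt7b had at most 5 counts in a library, Sfrp5 at most 8, and Dkk1 had 9 counts in CrAT replicate 1 and 0 elsewhere. Dkk2 had 0 counts in all libraries, which allows up to 0.109 to 0.126 CPM (3 counts of a library, counting error only).

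Levels between members are compared in FPKM, the deposited value per kilobase of exon. The most abundant were Ctnnb1, which encodes beta-catenin, at 33.5 ± 4.36 FPKM in CrAT and 32.1 ± 0.401 FPKM in MCS (SD, n = 2 each), the kinase gene Csnk1a1 at 28.4 ± 1.10 and 32.4 ± 0.606 FPKM, and Porcn at 29.7 ± 7.70 and 30.8 ± 10.1 FPKM. In MCS these 3 genes did not differ from each other beyond their spread, while in CrAT both values of Ctnnb1 (30.4 and 36.6 FPKM) lay above both of Csnk1a1 (29.2 and 27.6 FPKM), and Porcn overlapped with each. Nkd1 followed, at 18.4 ± 3.31 and 26.1 ± 4.70 FPKM. The Frizzled receptors were at 2.34 FPKM or less on average over the 4 libraries, the co-receptors at 1.04 FPKM or less and the Wnt ligands at 1.45 FPKM or less.

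**Figure D1:**
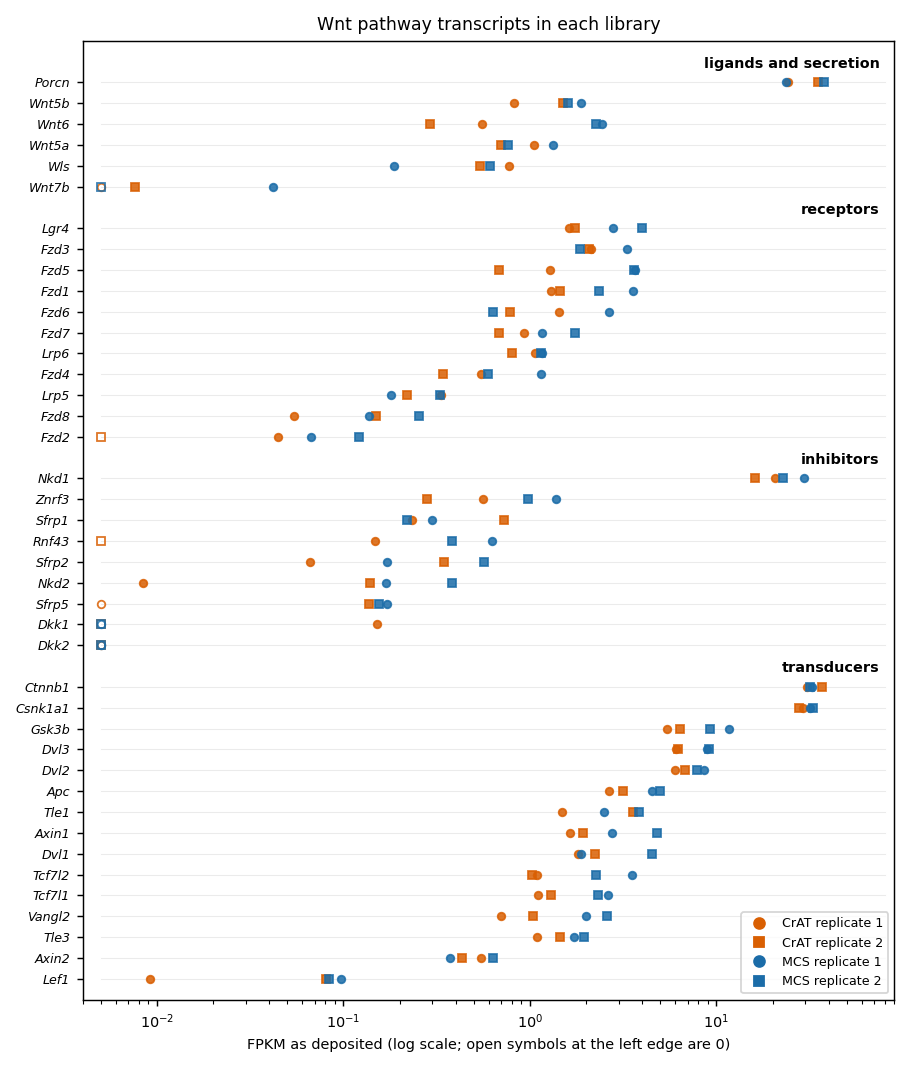
Deposited FPKM of the 41 members in each of the 4 libraries (log axis), by class and in order of mean level, with CrAT in orange, MCS in blue, replicate 1 as circles and replicate 2 as squares. Beta-catenin, Csnk1a1, Porcn and Nkd1 lie above 16 FPKM in every library, and most receptors between 0.5 and 5 FPKM with the orange symbols to the left.

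Among the ligands, Wnt6 (ENSMUSG00000033227) differed most between the groups. It was 1.26 and 0.641 CPM in CrAT against 5.23 and 4.85 CPM in MCS, from 30 and 17 counts against 130 and 134. Both CrAT libraries were far below both MCS libraries, and the gap was wider than the spread within either group. Its log2 fold change was -2.41 (SE 0.56), which is 5.30-fold lower in CrAT, with an unadjusted p of 0.00446 and an adjusted p of 1 in edgeR. Wnt5b, like Wnt5a a ligand known mainly for signalling without beta-catenin, was 2.26 and 4.00 CPM in CrAT against 4.91 and 4.16 CPM in MCS (log2 fold change -0.53, SE 0.49). The groups of Wnt5b came close to touching. Wnt5a was 8.50 and 5.54 CPM in CrAT against 10.2 and 5.87 CPM in MCS, and its groups overlapped (log2 fold change -0.19, SE 0.48).

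Secretion of any Wnt needs Porcn, the acyltransferase that attaches the lipid, and Wls, the carrier that takes the ligand to the cell surface. Porcn was 75.1 and 106 CPM in CrAT against 70.0 and 112 CPM in MCS, so replicate 2 was the higher one in both groups and the groups did not part (log2 fold change 0.00, SE 0.35). Wls was 7.04 and 4.79 CPM in CrAT against 1.61 and 5.29 CPM in MCS. Only MCS replicate 1 was low for Wls, and its log2 fold change of 0.77 (SE 0.65) was 0.16 without that library.

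The promoters of the 3 members with the smallest p are shown because their genes were low together in the CrAT libraries. The sequences are from RefSeq on GRCm38.p6, run 5′ to 3′ on the gene's strand from 250 bases before to 50 bases after an annotated start, and capitals mark a TCF/LEF core word on either strand, which is CTTTGAA or CTTTGAT or CTTTGTA or else CTTTGTT. On 1 strand these words cannot overlap. The Wnt6 window lies on the plus strand at chr1:74771642-74771941, that of Fzd5 on the minus strand at chr1:64737701-64738000, and those of 2 annotated starts of Tcf7l2 on the plus strand at chr19:55741560-55741859 and chr19:55895071-55895370.
Wnt6: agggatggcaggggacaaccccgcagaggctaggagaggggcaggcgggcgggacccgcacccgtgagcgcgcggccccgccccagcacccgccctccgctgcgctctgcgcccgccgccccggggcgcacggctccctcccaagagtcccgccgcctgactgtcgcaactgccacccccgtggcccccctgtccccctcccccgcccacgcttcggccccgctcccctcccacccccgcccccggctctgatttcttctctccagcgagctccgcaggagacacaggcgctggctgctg
Fzd5: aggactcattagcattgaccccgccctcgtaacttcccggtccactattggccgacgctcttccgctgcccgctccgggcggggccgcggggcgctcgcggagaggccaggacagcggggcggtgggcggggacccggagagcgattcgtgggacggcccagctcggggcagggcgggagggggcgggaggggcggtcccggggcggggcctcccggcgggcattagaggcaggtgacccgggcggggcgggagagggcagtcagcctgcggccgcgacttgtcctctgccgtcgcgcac
Tcf7l2, first start: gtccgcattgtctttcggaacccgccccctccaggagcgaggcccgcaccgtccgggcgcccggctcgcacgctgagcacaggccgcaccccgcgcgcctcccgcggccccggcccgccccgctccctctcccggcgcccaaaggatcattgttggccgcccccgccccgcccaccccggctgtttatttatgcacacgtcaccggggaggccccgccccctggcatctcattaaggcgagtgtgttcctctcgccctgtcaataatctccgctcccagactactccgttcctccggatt
Tcf7l2, second start: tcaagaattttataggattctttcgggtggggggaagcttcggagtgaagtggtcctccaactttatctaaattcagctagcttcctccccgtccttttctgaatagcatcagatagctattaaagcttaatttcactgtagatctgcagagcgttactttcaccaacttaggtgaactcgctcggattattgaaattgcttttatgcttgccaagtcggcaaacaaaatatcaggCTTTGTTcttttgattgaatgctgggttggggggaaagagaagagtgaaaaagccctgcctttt
The windows of Wnt6, Fzd5 and the first Tcf7l2 start are rich in G and C (76.7%, 75.7% and 70%) with 31, 38 and 34 CpG, and hold none of the words. The second Tcf7l2 window has 42% G and C, 7 CpG and 1 word, CTTTGTT. RefSeq windows were found for 27 of the 41 members, 35 windows in all, and 5 of these windows (14.3%) held a word, where 16.9% of 32851 windows of all genes did. The members with a word in a window were Fzd7, Lef1, Wnt5b, Dkk1 and Tcf7l2. A word is a description of the letters and not a bound site.

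Most receptor transcripts were lower in the CrAT libraries. Of 10 tested, 9 had a log2 fold change below 0 with a class median of -0.83, and 3 had an unadjusted p under 0.05, where 4.15% of all genes had one. Without Fzd8 the median over 9 was -0.79, with 8 below 0. Summed receptor levels were 87.0 and 71.2 CPM in CrAT against 142 and 116 CPM in MCS. All 7 Frizzled genes tested among the members had a log2 fold change below 0. Outside the member list, Fzd9 was at -0.98 (SE 0.46) and Fzd10 at 0.39 (SE 0.50). Fzd5 (ENSMUSG00000045005), a Frizzled of the developing and mature retina, was 9.17 and 4.75 CPM in CrAT against 25.01 and 24.6 CPM in MCS. The MCS libraries were nearly equal and both stood well above the CrAT pair. Its log2 fold change was -1.83 (SE 0.44), 3.56-fold lower in CrAT, with an unadjusted p of 0.00558 and an adjusted p of 1 in edgeR. In DESeq2 the adjusted p of Fzd5 was 0.0514, the lowest of any member there and just outside the threshold.

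Fzd1 was 5.61 and 6.11 CPM in CrAT against 14.7 and 9.63 CPM in MCS. The groups did not overlap, and the MCS pair was the more spread (log2 fold change -1.05, SE 0.42, unadjusted p = 0.0444). Lgr4, a receptor for R-spondins, the secreted proteins that raise the number of Frizzleds at the surface, was 9.84 and 10.3 CPM in CrAT against 16.2 and 23.2 CPM in MCS. CrAT replicates nearly coincided, and both MCS libraries were higher (log2 fold change -0.97, SE 0.38, unadjusted p = 0.041). Lgr5, a receptor gene outside the member list, was higher in CrAT, at 93.5 and 99.1 CPM against 60.9 and 69.2 CPM in MCS. Its log2 fold change was 0.57 (SE 0.27, unadjusted p = 0.0794 in edgeR). Of the 8 receptor genes tested outside the list, 6 were below 0 and 2 above. Fzd7, which is closely related to Fzd1, was 4.36 and 3.13 CPM in CrAT against 5.19 and 7.71 CPM in MCS (log2 fold change -0.79, SE 0.46). Fzd8 had 8 and 24 counts in CrAT against 20 and 41 in MCS, with a wide error (log2 fold change -0.88, SE 0.80). Fzd3, a Frizzled known for axon guidance, was 28.1 and 26.7 CPM in CrAT against 41.9 and 23.4 CPM in MCS. The groups of Fzd3 overlapped (log2 fold change -0.25, SE 0.38), and without MCS replicate 1 the value was 0.23. Fzd6, which acts with Fzd3 in tissue polarity, was 7.16 and 3.77 CPM in CrAT against 12.7 and 3.01 CPM in MCS, with replicate 1 the higher in both groups, and turned from -0.52 to 0.86 without MCS replicate 1.

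The order of the Frizzleds differed between the groups. Per length, Fzd5 was at 0.604 and 0.330 times the FPKM of Fzd3 in CrAT replicates 1 and 2, and at 1.10 and 1.95 times in MCS replicates 1 and 2. Fzd5 was thus below Fzd3 in both CrAT libraries and above it in both MCS libraries. This ratio was chosen after its values were seen and was not tested.

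The receptor of norrin is Fzd4, which works with Lrp5 and the tetraspanin Tspan12. Fzd4 was 3.81 and 2.30 CPM in CrAT against 7.601 and 3.95 CPM in MCS, close to touching between CrAT replicate 1 and MCS replicate 2 (log2 fold change -0.92, SE 0.54; -0.37 without MCS replicate 1). Lrp5 was 3.35 and 2.15 CPM in CrAT against 1.73 and 3.15 CPM in MCS, with overlapping groups (log2 fold change 0.17, SE 0.56), while Lrp6 was 15.0 and 11.1 CPM against 15.6 and 15.4 CPM (log2 fold change -0.25, SE 0.37). Of the norrin genes outside the member list, the ligand gene Ndp was 41.4 and 26.1 CPM in CrAT against 44.1 and 30.9 CPM in MCS (log2 fold change -0.15, SE 0.37). Tspan12 was 18.3 and 21.5 CPM against 37.4 and 20.2 CPM (log2 fold change -0.53, SE 0.41). Neither parted the groups. Markers that define endothelium, where this receptor acts, were at or near 0, with Cdh5 and Sox17 at 0 counts in all libraries and Cldn5 at 0 to 0.628 CPM. Summed endothelial markers came to 436 and 337 CPM in CrAT against 849 and 427 CPM in MCS, nearly all of it Kdr and Flt1. Flt1 alone was 79.2 and 51.03 CPM in CrAT against 244 and 206 CPM in MCS, while Kdr overlapped. The part of these cells in the Fzd4 values was not tested.

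**Figure D2:**
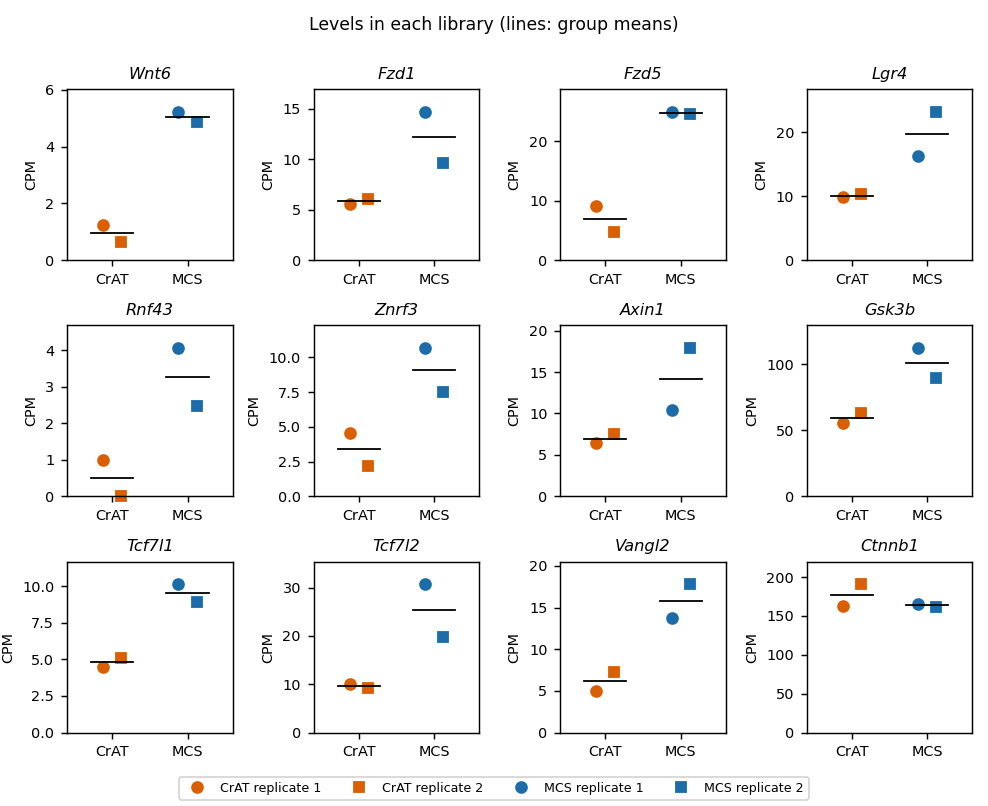
CPM in each library (vertical axes start at 0) of 11 members and of beta-catenin. The 11 had an unadjusted p under 0.05, or separate groups, an absolute log2 fold change of at least 1 and 1 CPM on average. Black lines are group means, circles replicate 1 and squares replicate 2. Both orange symbols lie below both blue ones in all 11, and beta-catenin lies between 162 and 191 CPM in the 4 libraries.

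The inhibitors among the members were mostly scarce. Inhibitor genes outside the member list summed to 3060 and 2762 CPM in CrAT against 4626 and 2905 CPM in MCS, most of it Dkk3. These sums overlapped between the groups. Gene by gene, all 10 tested outside the list had a log2 fold change below 0, with a median of -0.51. In 3 of these 10 (30%) the CrAT pair was under the MCS pair without overlap, and in 0 over it, where 16.6% and 15% of all genes were. None had an unadjusted p under 0.05 in edgeR. Of 6 members tested, 1 (Znrf3) was lower in CrAT at an unadjusted p under 0.05, where 4.15% of all genes had such a p. Of the 6, 5 had a log2 fold change below 0, and the class median was -1.09, but only Sfrp1, Nkd1 and Znrf3 reached the level of the filter in both groups. Over these 3 the median was -0.45, with 2 below 0. Znrf3 and Rnf43 are membrane ubiquitin ligases that remove Frizzleds from the surface. Znrf3 was 4.57 and 2.23 CPM in CrAT against 10.7 and 7.53 CPM in MCS. Its groups did not overlap (log2 fold change -1.42, SE 0.52, unadjusted p = 0.0326). Rnf43 had 24 and 0 counts in CrAT against 101 and 68 in MCS, so the gap rests on few reads, where 0 counts leave room for up to 0.113 CPM (log2 fold change -2.70, SE 1.38, unadjusted p = 0.0958). Without CrAT replicate 2, where it was 0, the Rnf43 value was -1.68.

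Nkd1, which binds Dishevelled and is induced by the pathway, was by far the most abundant inhibitor among the members. It was 97.5 and 73.7 CPM in CrAT against 132 and 102 CPM in MCS. Both CrAT libraries were below both MCS libraries by a margin that was smaller than the gap within either group (log2 fold change -0.45, SE 0.31). Its relative Nkd2 had 1 and 18 counts in CrAT against 20 and 50 in MCS (log2 fold change -1.83, SE 1.17). The soluble Wnt binder Sfrp1 was 1.05 and 3.21 CPM in CrAT against 1.29 and 0.942 CPM in MCS, with CrAT replicate 2 alone high. The log2 fold change of Sfrp1, 0.93 (SE 0.71), became -0.08 without that library. Sfrp2 had 4 and 20 counts in CrAT against 9 and 33 in MCS, more in replicate 2 of both groups (log2 fold change -0.75, SE 1.04).

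Among the transducers Tcf7l2, Tcf7l1, Gsk3b and Vangl2 were lower in CrAT at an unadjusted p under 0.05, while beta-catenin and Axin2 did not part the groups. Of 15 tested, 13 had a log2 fold change below 0, with a class median of -0.62. An unadjusted p under 0.05 was found for 4 of them, where 4.15% of all genes had one, and 11 had both CrAT libraries below both MCS libraries, where 16.6% of all genes did. Without Lef1 the counts were 12 below 0 of 14 and 10 with separate groups, and the median was -0.56. Tcf7l2 (ENSMUSG00000024985), a TCF factor that carries beta-catenin's signal to DNA, was 10.01 and 9.17 CPM in CrAT against 30.8 and 19.8 CPM in MCS. The CrAT pair was tight and low, and MCS replicate 1 was the highest. Its log2 fold change was -1.40 (SE 0.39), 2.64-fold lower in CrAT, with an unadjusted p of 0.0105 and an adjusted p of 1 in edgeR. Tcf7l1, which acts mostly as a repressor, was 4.48 and 5.13 CPM in CrAT against 10.2 and 8.95 CPM in MCS. Its groups were separate and both tight (log2 fold change -0.99, SE 0.40, unadjusted p = 0.0468). Lef1 had 2 and 19 counts in CrAT against 21 and 20 in MCS, so CrAT replicate 1 made the difference (log2 fold change -0.95, SE 1.05; -0.13 without it).

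Beta-catenin transcripts were 163 and 191 CPM in CrAT against 166 and 162 CPM in MCS. The groups overlapped, and the log2 fold change was 0.11 (SE 0.28). Relative to it, Tcf7l2 was at 0.0358 and 0.028 times the FPKM of Ctnnb1 in CrAT and 0.109 and 0.0712 times in MCS, a ratio also chosen after its values were seen.

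In the destruction complex Gsk3b, the kinase that marks beta-catenin for degradation, was 55.3 and 62.8 CPM in CrAT against 112 and 89.6 CPM in MCS. The groups were apart by more than the spread within them (log2 fold change -0.77, SE 0.29, unadjusted p = 0.0335), a 1.71-fold difference. The scaffold gene Axin1 was 6.45 and 7.47 CPM in CrAT against 10.4 and 17.9 CPM in MCS (log2 fold change -1.03, SE 0.44, unadjusted p = 0.0551), and Apc, the other scaffold, was 44.0 and 51.1 CPM against 71.9 and 78.7 CPM (log2 fold change -0.66, SE 0.28, unadjusted p = 0.0529). Both had separate groups, with MCS replicate 2 the highest. Csnk1a1, the kinase that primes beta-catenin, was 316 and 292 CPM in CrAT against 330.4 and 338 CPM in MCS, a small separation (log2 fold change -0.14, SE 0.28). Axin2, a scaffold and a widely used readout of pathway activity, was 3.0999 and 2.41 CPM in CrAT against 2.05 and 3.40 CPM in MCS. Its groups overlapped, and the log2 fold change of 0.01 (SE 0.52) leaves room for differences in either direction.

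The Dishevelled genes, which relay the signal from Frizzled, all had a log2 fold change below 0. Dvl3 was 40.1 and 40.02 CPM in CrAT against 56.4 and 57.7 CPM in MCS, nearly equal within each group (log2 fold change -0.51, SE 0.28, unadjusted p = 0.111). Dvl2 was 38.9 and 43.2 CPM against 53.3 and 48.5 CPM (log2 fold change -0.31, SE 0.28). Dvl1 was 9.30 and 11.2 CPM in CrAT against 9.25 and 22.2 CPM in MCS, where MCS replicate 2 alone was high, and its value of -0.62 became 0.15 without that library. The TLE corepressors, which hold TCF targets silent without beta-catenin, gave 13.2 and 16.9 CPM against 19.7 and 22.2 CPM for Tle3 (log2 fold change -0.48, SE 0.35). Tle1 was 13.3 and 31.5 CPM in CrAT against 21.4 and 32.8 CPM in MCS, higher in replicate 2 of both groups (log2 fold change -0.28, SE 0.50). Vangl2, a core protein of planar cell polarity and so of the branch without beta-catenin, was 5.03 and 7.28 CPM in CrAT against 13.8 and 17.9 CPM in MCS. Both CrAT libraries were far below both MCS libraries (log2 fold change -1.36, SE 0.41, unadjusted p = 0.0157), a 2.57-fold difference.

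**Figure D3:**
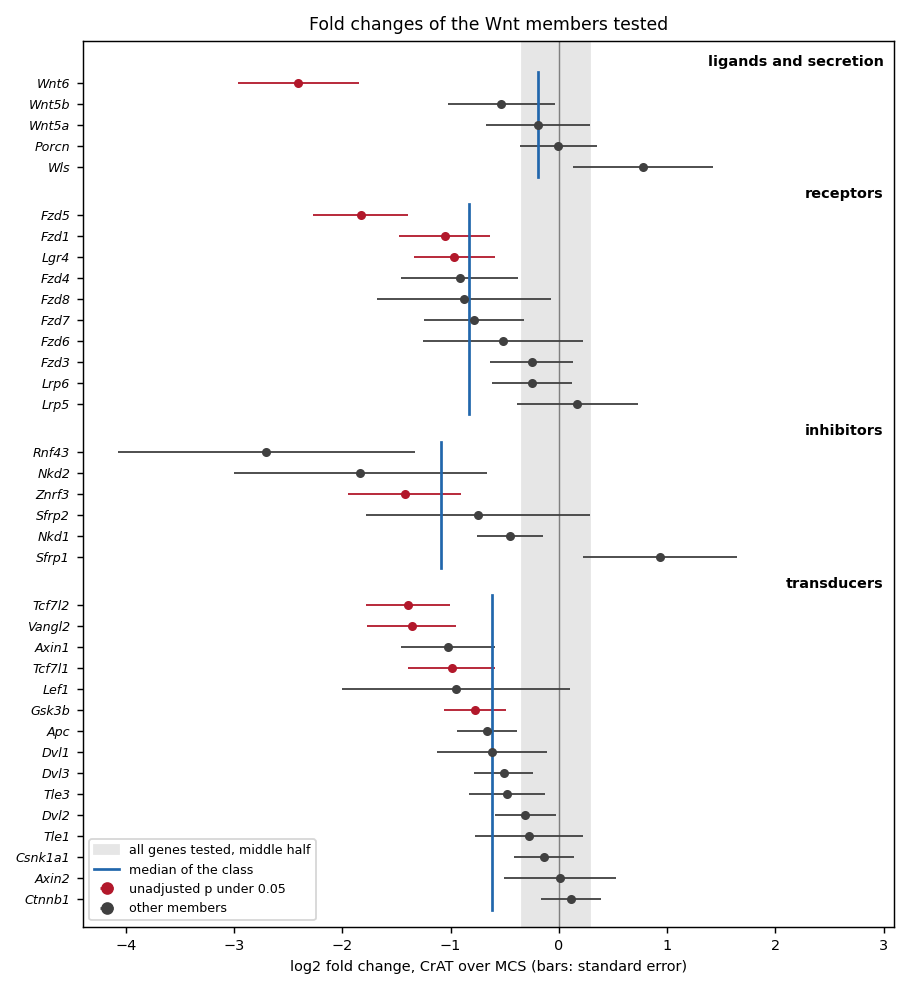
Log2 fold change (CrAT over MCS, bars of 1 SE from edgeR) of the 36 members tested, by class, with the 9 at an unadjusted p under 0.05 in red, class medians as blue lines and the interquartile range of all genes tested (-0.35 to 0.28) in grey. Receptors, inhibitors and transducers lie mostly left of 0, with medians of -0.83, -1.09 and -0.62, and ligand and secretion genes around a median of -0.19. Over members at the level of the filter in both groups, these medians were -0.79, -0.45, -0.56 and -0.19.

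The library that was left out mattered for the weakly expressed members and for those with uneven pairs. Of the 36 members, 24 were below 0 and 2 above 0 whichever library was left out, and 10 changed sign at least once. Wnt6 ranged from -2.97 to -1.99, Fzd5 from -2.38 to -1.42, Tcf7l2 from -1.68 to -1.04, Vangl2 from -1.64 to -1.12 and Znrf3 from -2.03 to -0.98. Fzd1 ranged from -1.33 to -0.72, Lgr4 from -1.20 to -0.69, Tcf7l1 from -1.08 to -0.90 and Gsk3b from -0.93 to -0.60. The upper ends came without CrAT replicate 2 for Wnt6, Fzd5 and Znrf3, without CrAT replicate 1 for Vangl2, without MCS replicate 1 for Tcf7l2, Fzd1, Tcf7l1 and Gsk3b, and without MCS replicate 2 for Lgr4. Each of these fits leaves 1 library alone in its group, which is assumed to vary like the pair of the other group, so no p from them is given.

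**Figure D4:**
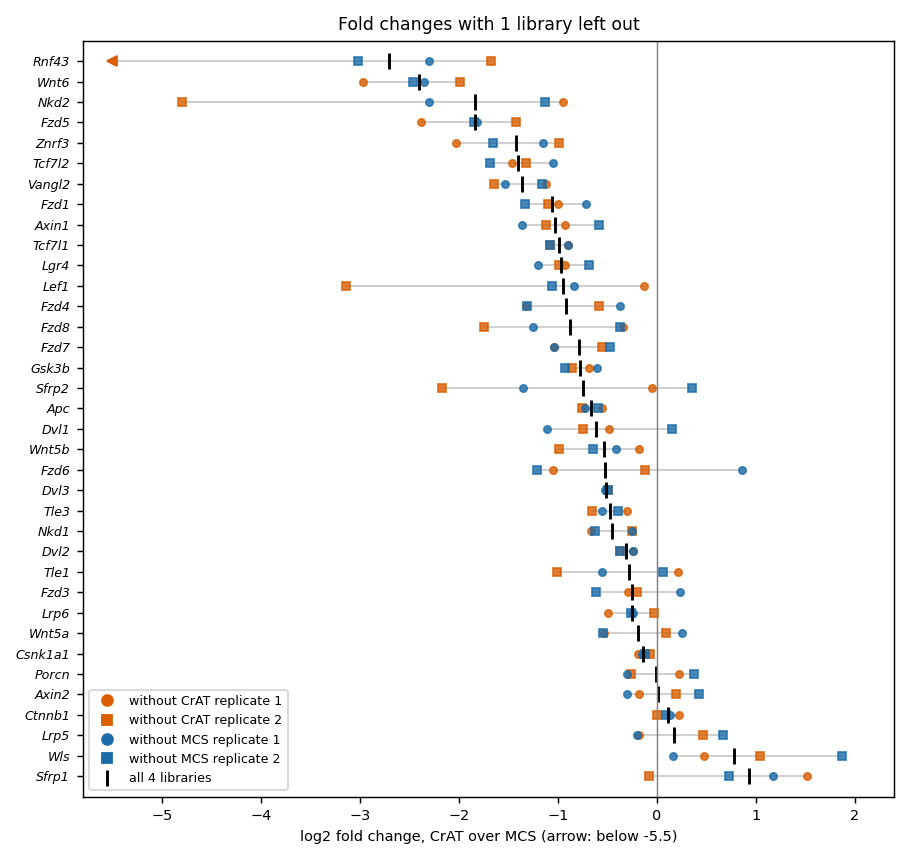
Log2 fold change (CrAT over MCS) of each member tested with all 4 libraries (black bar) and without each library in turn (symbols); the arrow for Rnf43 stands for a value below the axis, fitted against a single CrAT library with 0 counts. The 9 members at an unadjusted p under 0.05 stay left of 0 in every fit, while Fzd3, Fzd6, Sfrp1, Dvl1 and Axin2 cross it.

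Other genes of the pathway, 68 that are not members, were also mostly below 0. Of 50 tested, 37 had a log2 fold change below 0 and 13 above, with a median of -0.33, 4 had an unadjusted p under 0.05, all lower, which is 8% where all genes gave 4.15%, and 0 passed the adjusted threshold. In 17 (34%) the CrAT pair was under the MCS pair without overlap and in 5 (10%) over it, where 16.6% and 15% of all genes were. Bambi, a decoy receptor of TGF-beta signalling and a known Wnt target, was 50.3 and 44.9 CPM in CrAT against 88.1 and 87.5 CPM in MCS (log2 fold change -0.88, SE 0.27, unadjusted p = 0.0162). Bcl9l, a coactivator of beta-catenin, was 6.03 and 7.17 CPM against 12.1 and 18.5 CPM (log2 fold change -1.21, SE 0.41, unadjusted p = 0.0249). The polarity cadherin Celsr2 had a log2 fold change of -1.03 (SE 0.38) and Ror1, a receptor for Wnt5a, one of -1.15 (SE 0.44), with unadjusted p of 0.0348 and 0.0381. Their 2 CrAT libraries were below both MCS libraries, as for Vangl2 above. Values for Ptk7, Wnt9a and Fzd9 were -0.80, -1.01 and -0.98, with unadjusted p of 0.0564, 0.0619 and 0.0739. Btrc, the ubiquitin ligase subunit that recognises phosphorylated beta-catenin, was on the other side, at 126 and 125 CPM in CrAT against 91.6 and 68.8 CPM in MCS (log2 fold change 0.65, SE 0.29, unadjusted p = 0.064). Of the textbook targets, Ccnd1 had -0.29 (SE 0.33), Myc 0.83 (SE 0.70) and Tnfrsf19 0.77 (SE 0.58), and Sp5 had too few reads to be tested, so of the 4 targets tested, Bambi included, 2 were below 0 and 2 above.

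Markers of Mueller glia were also lower in the CrAT libraries. All 16 had a log2 fold change below 0, with a median of -0.63, where 49.4% of all genes were below 0. An unadjusted p under 0.05 was found for 4 of them (25%, against 4.15% of all genes), and they summed to 15303.5 and 11909 CPM in CrAT against 22557 and 20635.5 CPM in MCS. The ratio of the group means, CrAT over MCS, was 0.630 for that sum and 0.614, 0.698, 0.817 and 0.961 for the summed receptors, inhibitors, transducers, and ligands with secretion genes. The defining markers Rlbp1, Glul and Sox9 were present in every library, and Glul was 767 and 522 CPM in CrAT against 1496 and 1831 CPM in MCS. The part of the Mueller glia markers in the Wnt result was not tested. Astrocyte markers summed to 1589 and 1859 CPM against 1943 and 1903 CPM, with Pax2, their defining factor, at 0 to 1 count, and microglia and macrophage markers to 6.45 and 7.20 against 9.73 and 12.2 CPM. Pericyte markers summed to 37.6 and 32.0 CPM against 66.6 and 39.0 CPM, most of it Pdgfrb. Summed rod, cone and bipolar markers overlapped between the groups, with ratios of 0.991, 1.03 and 0.992. Amacrine and ganglion cell sums were higher in replicate 2 of both groups and overlapped as well, with ratios of 1.48 and 1.40. Horizontal cell markers summed to 202 and 258 CPM against 195 and 180 CPM. Pigment epithelium and ciliary body markers summed to 11.7 to 19.7 CPM with overlapping groups and lens markers to 0.586 to 2.39 CPM, with Rpe65 and Lim2 at 0 counts in all libraries.

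**Figure D5:**
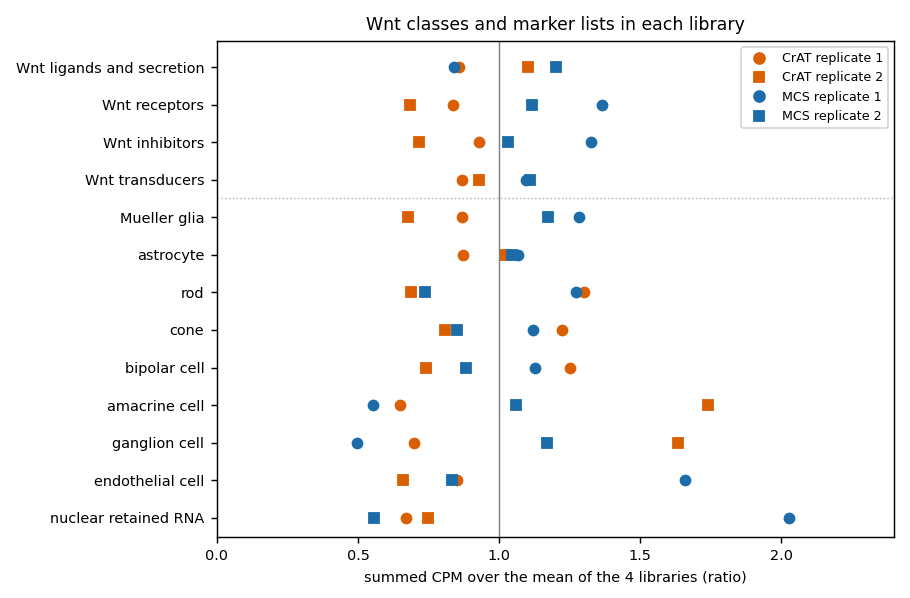
Summed CPM of each Wnt class and of marker lists in each library, divided by the mean of the 4 libraries (1 on the horizontal axis), with CrAT in orange, MCS in blue, replicate 1 as circles and replicate 2 as squares. Wnt receptors, inhibitors and transducers and the Mueller glia markers have both CrAT libraries left of both MCS libraries, whereas rod, cone, bipolar, amacrine and ganglion cell sums part by replicate number, and MCS replicate 1 stands apart in nuclear retained RNA.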

How the data were processed

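RNA of sorted retinal cells was isolated with a Qiagen micro-scale kit, then copied with a low-input SMART-seq kit, per the labels' protocols, a kit without strand information, so a gene and its antisense partner share reads. STAR 2.7.2b is named in the submitters' processing notes, as are builds mm10 and GRCm38.p6. Counting settings and annotation release were not stated. The authors deposited estimated counts rounded to whole numbers and FPKM for 56493 genes. The deposited FPKM, multiplied by exon length and a library total, returned the counts within 0.5, and 43.6% to 44.9% of values above 0 were not whole within 0.02. The design had assumed whole counts, and the same test applies. Of 51898 gene identifiers shared with GRCm38, 1402 had equal start and end coordinates. The tables' coordinates are therefore not printed, and promoter coordinates are those of RefSeq. The tables' 4 columns of other samples were not used.

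Genes were kept by filterByExpr (19638), scaled by TMM (factors 0.970 to 1.02) and tested with edgeR 4.0.16 (quasi-likelihood F test, robust, group only, 2 residual degrees of freedom, two-sided) in R 4.3.3, p-values adjusted by Benjamini-Hochberg across the tested genes, and 0.05 as threshold. SE is the log2 fold change over the root of F. The common biological coefficient of variation was 0.404. Libraries of 1 group differed beyond counting noise (chi-square over degrees of freedom 77.5 in CrAT, 131 in MCS). Alternatives were DESeq2 1.42.0, its size factors, library totals, no filter, a replicate block and each library left out. The fit was also run on simulated counts, and no result here rests on that run.

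Members and gene lists were chosen with earlier results of these data known. Of the other Wnt genes, Dkk3, Lgr5 and Fzd10 were named after their values were seen. Every member is reported. Named in full were those with an unadjusted p under 0.05, or separate groups with a log2 fold change of at least 1 in size and 1 CPM, or the highest FPKM of their role, with the 8 smallest p among other Wnt genes at 1 CPM or more, and Ndp and Tspan12.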

Additional observations from a re-analysis of the deposited data

How the results depend on the processing

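With 2 libraries a group, no member passed in any fit. All genes past the adjusted threshold numbered 54 with DESeq2 and 2 without the filter on low counts (H2-Aa and Apol6, named after their values were seen), against 0 otherwise. With a replicate block the genes at an unadjusted p under 0.05 went from 815 to 1922 (9.79%) and the members from 9 to 13. The labels do not say that a number marks a shared litter or day. The deviations of same-numbered libraries correlated at 0.39 over genes, and the block changed no member's call. The scalings moved the median of all genes by less than 0.1, to -0.04 with library totals. The inhibitor median was -1.14 with library totals, -0.95 with no filter and -1.16 with the block. With no filter the ligand and secretion median was -0.35 and that of other Wnt genes -0.44; the filter's removal adds genes to both. Of 180 member values under these settings, 175 kept their sign. The reversed ones were Porcn, at 0.00521 with DESeq2's size factors, 0.005212 with DESeq2, 0.004839 with no filter and 0.01297 with the block, and Axin2, at -0.04104 with library totals.

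Without each library in turn, class medians ranged from -0.54 to -0.18 for ligands and secretion, -0.96 to -0.54 for receptors, -1.33 to -0.81 for inhibitors, -0.76 to -0.49 for transducers and -0.45 to -0.25 for other Wnt genes. Members at an unadjusted p under 0.05 numbered 4 to 7 (a lone library is assumed to vary like the other pair), members with separate groups 26 to 33 against 23, since 1 library against 2 separates more often, and members or genes called 0. The members that changed sign ranged from -0.54 to 0.26 (Wnt5a), -0.30 to 0.37 (Porcn), -0.61 to 0.23 (Fzd3), -1.21 to 0.86 (Fzd6), -0.20 to 0.67 (Lrp5), -0.07513 to 1.52 (Sfrp1), -2.17 to 0.35 (Sfrp2), -1.11 to 0.15 (Dvl1), -0.30 to 0.43 (Axin2) and -1.01 to 0.21 (Tle1). The 26 to 33 members with separate groups were counted in either direction, whereas the 23 with all libraries were all lower in CrAT. For these fits the share of all genes with separate groups is not given. The 26 to 33 can therefore not be set against a background. The share of all genes at an unadjusted p under 0.05 differed between these fits. Nothing is drawn from the member counts at that p. Depth limits the members under 1 CPM.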
